A study of Xenopus tropicalis with 84 samples.

Results

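The genes described here are the homeobox and paired patterning genes of the frog *Xenopus tropicalis*. They were taken by symbol and comprise the Hox genes of the 4 clusters and the *cdx*, *nkx*, *pax*, *lhx* (*lhx2* to *lhx9*), sine oculis-type (such as *six4*), *pitx*, *meis*, *pbx* and *tgif* genes. These were 86 of the 34192 genes of the expression table, with 84 different symbols, since *hoxa11* and *hoxc9* each stood on 2 entries with different gene IDs. Embryos injected with 10 ng of a morpholino that covers the translation start of *nup107* (*nup107* MO) were compared with uninjected controls (UIC) raised alongside them. An MO is an antisense oligonucleotide that blocks translation, and Nup107 is a scaffold protein of the nuclear pore. PolyA+ RNA was sequenced every 0.5 h from 2 to 12 h postfertilization (hpf), from cleavage to the end of gastrulation, with 1 library of 10 pooled embryos for each of the 21 time points and conditions. Both conditions were sibling embryos of in vitro fertilization, and no embryo injected with another MO was among these libraries, so that any effect of injection enters every difference. The libraries are called polyA+ after the labels, since a table deposited for ribozero libraries holds the same values and the values do not show which kind of library they come from.

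Homeobox proteins bind DNA through a homeodomain, and most PAX proteins bind it through a paired domain, some with a homeodomain as well. In vertebrate embryos, Hox genes give cells their position along the head to tail axis. They lie in clusters, and the genes at the 3′ end (low paralog numbers) are known to be switched on earlier and further towards the head than those at the 5′ end. Cdx proteins act on Hox genes in the posterior embryo, and PBX and MEIS proteins bind DNA together with Hox proteins. Pitx, Lhx, Nkx, Pax and sine oculis-type proteins act mainly in the head, the sensory placodes, the neural plate and the organs.

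Levels are in TPM, the share of all transcripts that a gene makes up, which is already scaled to transcript length, so that genes can be compared. TPM keep no record of read numbers, and the depth of each library is therefore unknown. The ERCC spike-ins, synthetic RNAs added in a fixed amount, took 4.60% to 5.98% of the TPM in *nup107* MO libraries and 4.46% to 6.35% in UIC libraries. The targeted gene, *nup107*, had means at 9 to 12 hpf of 95.2 ± 25.9 TPM in *nup107* MO and 40.7 ± 13.4 TPM in UIC (SD, 7 time points each). This MO acts on translation, so that the mRNA level does not measure the depletion. All 15 markers of ectoderm, mesoderm, endoderm and neural tissue that were found in the table were expressed, among them *sox17a*, *gata4*, *msgn1*, *t*, *sox2* and *tfap2a*, as a whole embryo should show. In whole embryos, fewer cells of a type and less RNA per cell cannot be told apart.

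The 86 genes covered a wide range of levels. In their highest library 8 were over 100 TPM (*cdx4*, *pbx2*, *hoxd1*, *lhx5*, *cdx2*, *meis3*, *tgif2* and *cdx1*) and 29 were over 10 TPM, whereas 20 stayed under 1 TPM in all 42 libraries. The 20 included *pax1*, *pax4*, *pax5*, *pax7* and *pax9*, *hoxa13*, *hoxc13* and *hoxd13*, and *nkx2-1*, a gene of the later ventral forebrain and thyroid. In all, 35 genes passed a filter of 6 consecutive time points over 0.4 TPM in either condition and were tested, and 51 did not. The filter removed many genes that were expressed only at the end of the series. Of the 36 Hox entries, 8 passed it.

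Of the 86 genes, 12 were at 1 TPM or more at 2 or 2.5 hpf, when the RNA of the embryo is almost all maternal. They included *tgif1*, *tgif2*, *pbx2*, *meis3*, *six4*, *lhx4*, *lhx8*, *pax3*, *nkx6-1*, *hoxd1* and *hoxb2*. *hoxb2* reached 1.00 TPM at 2.5 hpf in *nup107* MO, against 0.10 TPM in UIC at that time, and was under 1 TPM in every other library before 11 hpf. Both conditions showed similar shapes over time for the others, as the plot of the early genes shows.

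Cofactors of Hox proteins were among the early genes. *pbx2*, a TALE homeobox partner of Hox proteins, had a lowest level of 62.9 TPM, a median of 89.4 TPM and a highest level of 251 TPM over the 21 *nup107* MO libraries. In UIC, its lowest, median and highest levels were 62.0, 89.5 and 256.3 TPM. The lowest levels came at 5.5 hpf in *nup107* MO and 6 hpf in UIC, and both conditions had their highest level at 12 hpf. *pbx3* stayed low, with a highest level of 1.11 TPM in *nup107* MO and 1.14 TPM in UIC.

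*meis3*, which acts in hindbrain patterning in *Xenopus*, had 5.44, 23.1 and 177 TPM (lowest, median and highest) in *nup107* MO and 5.25, 19.6 and 167 TPM in UIC. It was lowest at 2 hpf in both conditions and highest at 10.5 hpf in *nup107* MO and 11 hpf in UIC. At 16 of 21 time points its level in *nup107* MO was above that in UIC. The ranges of the conditions overlapped nearly completely, but they are set by the change over time and do not weigh the difference between pairs. The other *meis* genes appeared late. *meis1* was at 6.92 TPM in *nup107* MO and 7.17 TPM in UIC at 12 hpf, and *meis2* at 1.95 TPM in *nup107* MO and 1.96 TPM in UIC.

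The *tgif* genes encode TALE homeobox repressors of TGF-beta signalling. *tgif2* had 48.3, 74.8 and 171 TPM in *nup107* MO and 47.3, 75.3 and 149 TPM in UIC (lowest, median and highest). It peaked at 7.5 hpf in both conditions, and was lowest at 12 hpf in both. At 7 hpf *tgif2* had 166 TPM in *nup107* MO and 125 TPM in UIC, and at 8 hpf 123 TPM in *nup107* MO and 143 TPM in UIC. *tgif1* peaked at 5.5 hpf in *nup107* MO with 72.7 TPM, and at 6.5 hpf in UIC with 69.3 TPM. From 6.5 to 9 hpf it was lower in *nup107* MO at each time point, by values such as 44.6 TPM at 8 hpf, against 54.1 TPM in UIC, and at 9.5 hpf it was higher in *nup107* MO.

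*six4*, a sine oculis-type gene of the placodes and muscle, was nearly level over time. Its lowest, median and highest levels were 55.5, 67.9 and 77.2 TPM in *nup107* MO and 50.2, 65.7 and 88.4 TPM in UIC. From 9 to 12 hpf its *nup107* MO level exceeded the UIC level in 7 of 7 pairs, with means of 69.0 ± 4.43 TPM in *nup107* MO and 63.5 ± 6.69 TPM in UIC (SD). At 2 hpf it was lower in *nup107* MO, with 74.7 TPM, against 88.4 TPM in UIC.

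The early LIM homeobox genes fell during the series. *lhx8*, known in mammals from oocytes and the forebrain, had a highest level of 13.5 TPM at 4 hpf in *nup107* MO and 12.3 TPM at 5 hpf in UIC. At 9 to 12 hpf its mean was 0.381 ± 0.219 TPM in *nup107* MO and 0.691 ± 0.622 TPM in UIC. The single UIC library of 9 hpf, at 2.06 TPM against 0.69 TPM in *nup107* MO, made most of this gap. *lhx4* peaked at 4.57 TPM in *nup107* MO (6 hpf) and 4.29 TPM in UIC (6.5 hpf). *nkx6-1*, a gene of the later ventral neural tube, was at 5.99 TPM in *nup107* MO and 5.23 TPM in UIC at 2 hpf, and was lowest at 9.5 hpf in both conditions. At 12 hpf it was at 2.91 TPM in *nup107* MO and 2.51 TPM in UIC.

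**Figure D1:**
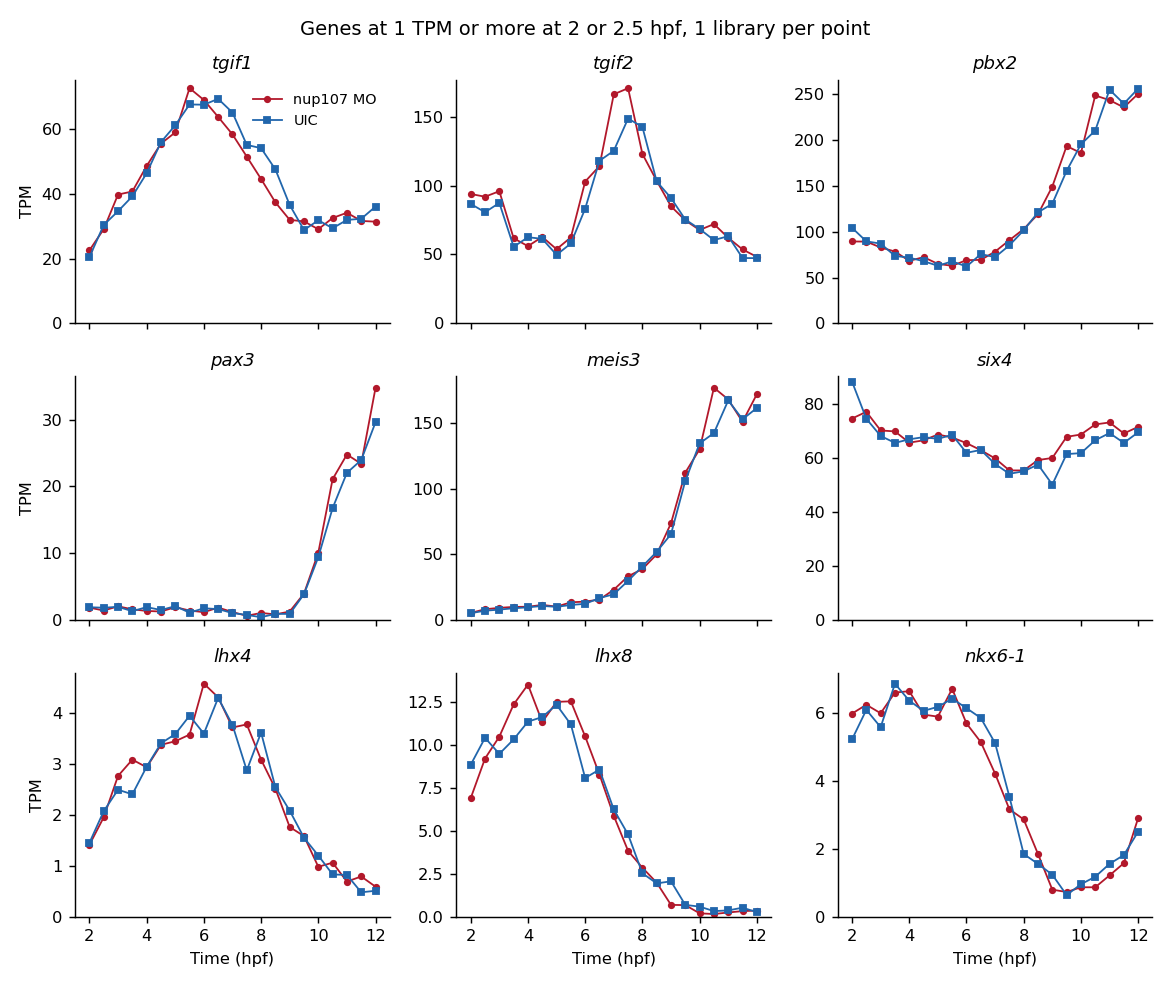
Levels (TPM, vertical axes from 0) of 9 genes found at 2 or 2.5 hpf against time (hpf), with nup107 MO as red circles and UIC as blue squares, 1 library of 10 embryos per point. The curves of both conditions have similar shapes, with pbx2, meis3 and pax3 highest towards 12 hpf, the tgif genes peaking between 5.5 and 7.5 hpf, and lhx8 close to 0 from 10 hpf on. They lie apart at some times. tgif2 is higher in nup107 MO at 7 hpf and lower at 8 hpf, tgif1 is lower in nup107 MO from 6.5 to 9 hpf, and six4 is lower in nup107 MO at 2 hpf.

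The onset of a gene was defined as the first of 3 consecutive time points at 1 TPM or more, for the genes under 1 TPM at 2 and 2.5 hpf in both conditions. The latest onset that this definition can give is 11 hpf. It yielded an onset in both conditions for 33 genes, in *nup107* MO alone for 2 genes (*nkx2-4* at 10.5 hpf and *hoxc10* at 11 hpf), and in neither for 39 genes. At 12 hpf *nkx2-4* had 3.15 TPM in *nup107* MO and 2.23 TPM in UIC, and *hoxc10* had 4.33 TPM in *nup107* MO and 3.39 TPM in UIC. The median onset of the 33 genes was 10 hpf in both conditions, and 27 of them in *nup107* MO and 28 in UIC had their highest level at 12 hpf.

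Of the 33 genes, 4 had a later onset in *nup107* MO (*pitx3*, *cdx1*, *hoxb1* and *six3*), 9 an earlier one, and 20 the same one. Among all 1844 genes of the table with an onset in both conditions, 18.2% had a later onset and 32.8% an earlier one in *nup107* MO, and 49.0% had the same one. The onsets of 31 of the 33 genes lay within 1 time point of each other, as did those of 85.8% of all such genes. With 10% of each gene's highest value as the level, 50 genes had an onset in both conditions, of which 27 were earlier and 3 later in *nup107* MO with a median shift of -0.5 h, beside 37.9% earlier and a median shift of 0 h among all genes. A single library per time point gives no error for an onset, and these differences were not tested.

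The 2 genes whose onsets differed by more than 1 time point were both at low levels around their onsets. *nkx6-2*, a repressor of the neural tube, had its onset at 4.5 hpf in *nup107* MO and 6 hpf in UIC. At 4.5, 5 and 5.5 hpf it was at 1.47, 2.16 and 1.12 TPM in *nup107* MO and at 1.34, 0.57 and 0.79 TPM in UIC. With 0.5 TPM as the level, its onset was 4 hpf in both conditions, and with 2 TPM it was 8.5 hpf in *nup107* MO and 7.5 hpf in UIC. The order of the conditions therefore turned with the level chosen. *nkx6-2* rose later and was highest at 12 hpf, at 17.6 TPM in *nup107* MO and 17.2 TPM in UIC. *pitx3*, a gene of the lens and midbrain, had its onset at 5 hpf in *nup107* MO and 4 hpf in UIC. It ran between 0.41 and 1.69 TPM in *nup107* MO (median 0.80 TPM) and between 0.27 and 1.87 TPM in UIC (median 1.07 TPM), so that its whole range lay around the level of 1 TPM.

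The earliest clear onset was that of *lhx5*, a LIM homeobox gene of the forebrain, at 5.5 hpf in both conditions. It was at 2.18 TPM in *nup107* MO and 2.08 TPM in UIC at 5.5 hpf, after 0.17 TPM in *nup107* MO and 0.07 TPM in UIC at 5 hpf. Its median was 70.0 TPM in *nup107* MO and 72.4 TPM in UIC, and its highest level was 216 TPM at 9 hpf in *nup107* MO and 201 TPM at 9.5 hpf in UIC. It was higher in *nup107* MO at 7 and 7.5 hpf (99.0 and 165 TPM, against 73.0 and 133 TPM in UIC) and lower in *nup107* MO at 9.5 to 12 hpf, with 118 TPM in *nup107* MO and 153 TPM in UIC at 11 hpf.

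The 3 *cdx* genes, caudal-type homeobox genes of the posterior embryo, had onsets from 6.5 to 7.5 hpf. Of all 86 genes, *cdx4* reached the highest level. *cdx4* had its onset at 6.5 hpf in *nup107* MO and 7 hpf in UIC. Its median and highest levels were 3.60 and 434 TPM in *nup107* MO and 1.84 and 419 TPM in UIC. *cdx1* had its onset at 7.5 hpf in *nup107* MO and 7 hpf in UIC, and at 7 hpf it stood at 0.95 TPM in *nup107* MO and 1.14 TPM in UIC. *cdx2* had its onset at 7.5 hpf in both.

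The *cdx* levels over the last hours lay slightly apart. *cdx1* had 163 TPM in *nup107* MO and 139 TPM in UIC at 12 hpf, and means at 9 to 12 hpf of 103 ± 53.8 TPM in *nup107* MO and 90.5 ± 45.9 TPM in UIC (SD over 7 time points, which includes the change over time). *cdx2* had 180 TPM in *nup107* MO and 166 TPM in UIC at 12 hpf. From 9 to 12 hpf, the *nup107* MO level of both genes exceeded the UIC level in 7 of 7 pairs, and that of *cdx4* in 6 of 7.

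**Figure D2:**
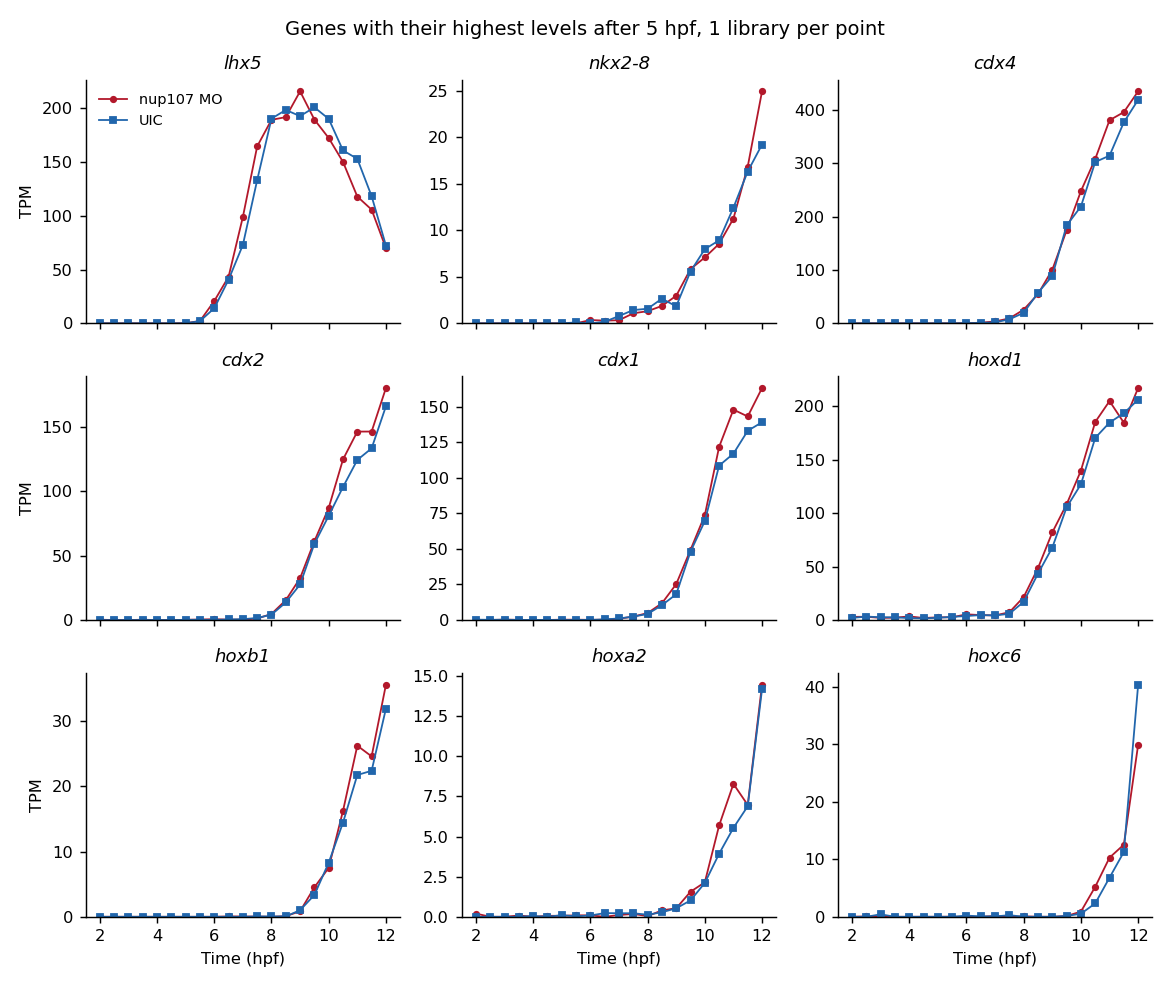
Levels (TPM, vertical axes from 0) of 9 genes against time (hpf), with nup107 MO as red circles and UIC as blue squares, 1 library of 10 embryos per point. lhx5 peaks between 9 and 9.5 hpf, the 3 cdx genes, hoxd1, hoxb1 and hoxa2 have higher levels at each later time from 9 to 10.5 hpf, and hoxc6 is highest at 12 hpf, where it has 29.9 TPM in nup107 MO and 40.4 TPM in UIC.

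Among the *nkx* genes, *nkx2-8* reached the highest level, with a median of 0.36 TPM and a highest level of 24.9 TPM in *nup107* MO, against a median of 0.79 TPM and a highest level of 19.2 TPM in UIC. Its onset was 7.5 hpf in both conditions.

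The sine oculis-type gene *six3*, which acts in the forebrain and eye, had its onset at 10.5 hpf in *nup107* MO and 10 hpf in UIC, and was at 12.1 TPM in *nup107* MO and 14.7 TPM in UIC at 12 hpf. *six6*, which also acts in the eye, was seen only briefly, with its onset at 8 hpf and its highest level at 8.5 hpf in both conditions, at 2.83 TPM in *nup107* MO and 1.92 TPM in UIC.

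The leading *pax* gene was *pax3*, which acts at the border of the neural plate. It was at 0.64, 1.61 and 34.8 TPM (lowest, median and highest) in *nup107* MO and at 0.43, 1.85 and 29.6 TPM in UIC. A low early level was followed by a steep climb in both conditions, with 1.28 TPM in *nup107* MO and 0.92 TPM in UIC at 9 hpf, then 10.1 TPM in *nup107* MO and 9.42 TPM in UIC at 10 hpf. *pax6*, which acts in the eye and forebrain, was among the latest genes, with its onset at 11 hpf in both conditions and levels at 12 hpf of 24.0 TPM in *nup107* MO and 27.2 TPM in UIC. *pax2* had its onset at 10 hpf in *nup107* MO and 10.5 hpf in UIC.

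**Figure D3:**
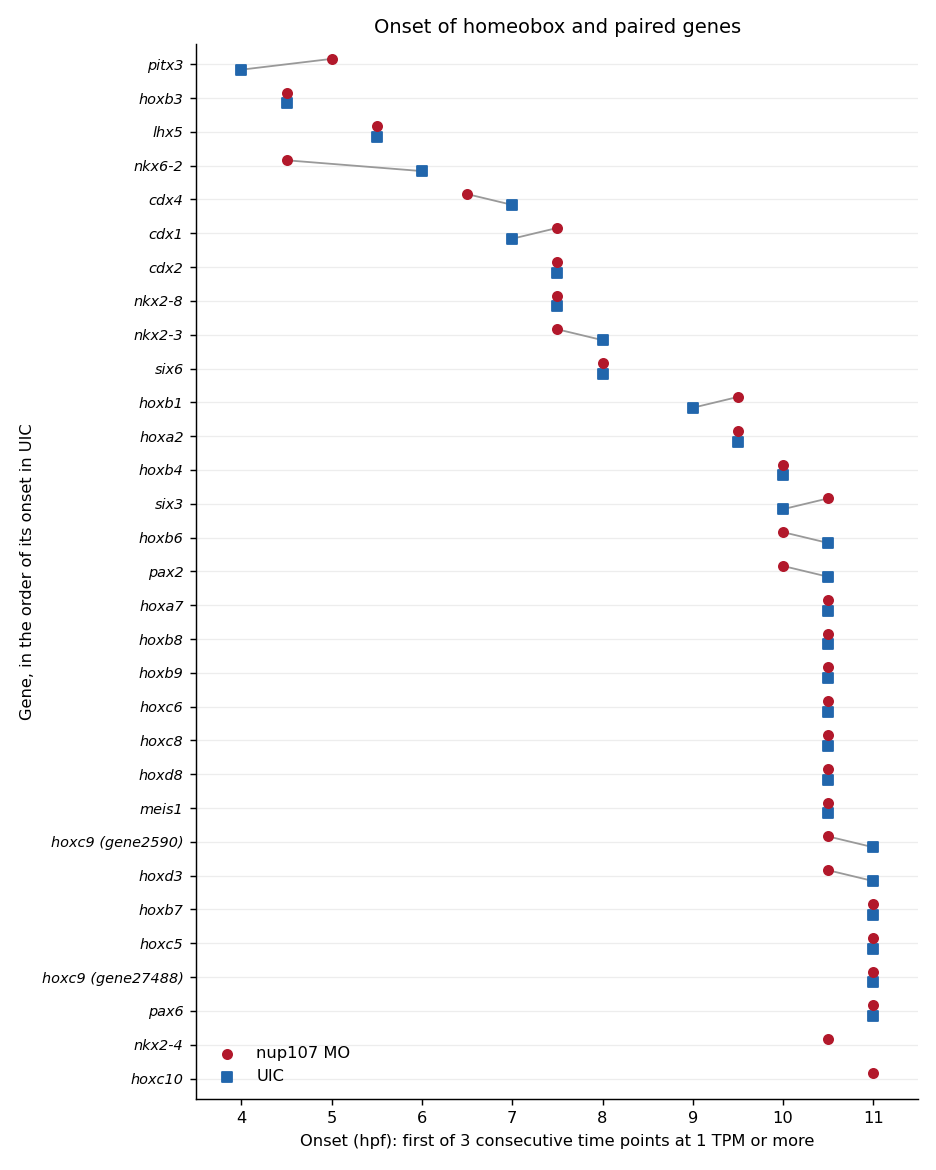
Onset (hpf, horizontal axis) of 29 of the 33 genes with an onset in both conditions and of the 2 with one in nup107 MO alone (lowest lines), with nup107 MO as red circles above UIC as blue squares and a grey line joining both. Most pairs coincide or lie 0.5 h apart, and the pairs farthest apart are nkx6-2 and pitx3.

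At the level of 1 TPM, Hox genes of low paralog number that had an onset mostly had an earlier one than the others. This held in both conditions, with the exceptions given below. A gene with a higher level can pass a fixed level sooner, so this order does not show timing apart from level. With a level scaled to each gene's maxima the order was kept only in part, as described further on. Among the 9 entries of paralog groups 1 to 3, 5 had an onset in both conditions, with medians of 9.5 hpf in *nup107* MO and 9 hpf in UIC. These medians include *hoxb3*, whose onset moved with the level chosen, as described below. Among the 14 entries of groups 4 to 8, 9 had an onset in both, from 10 to 11 hpf with a median of 10.5 hpf in *nup107* MO and in UIC. Among the 13 entries of groups 9 to 13, 4 had an onset in *nup107* MO and 3 in UIC, all between 10.5 and 11 hpf. The onsets of groups 4 to 8 and 9 to 13 therefore lay close together, and none after 11 hpf could be given. The 5 Hox entries under 1 TPM in all libraries belonged to this last class. By cluster, onsets in both conditions were found for 3 HoxA, 7 HoxB, 5 HoxC and 2 HoxD entries.

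The Hox gene with the highest level was *hoxd1*. It was present from the start, at 3.01 TPM in *nup107* MO and 2.01 TPM in UIC at 2 hpf. It had 7.34 TPM in *nup107* MO and 5.89 TPM in UIC at 7.5 hpf, then 21.6 TPM in *nup107* MO and 17.1 TPM in UIC at 8 hpf. Its highest level, at 12 hpf, was 217.2 TPM in *nup107* MO and 206.3 TPM in UIC. The step between 7.5 and 8 hpf came at the same time in both conditions. In 15 of 21 pairs of libraries *hoxd1* was higher in *nup107* MO.

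*hoxb1*, a gene of the hindbrain, was at 0.85 TPM in *nup107* MO and 1.01 TPM in UIC at 9 hpf, so that its onset was 9.5 hpf in *nup107* MO and 9 hpf in UIC although the values lay close together. Its highest level was 35.6 TPM in *nup107* MO and 31.9 TPM in UIC. *hoxa2*, also a gene of the hindbrain, had its onset at 9.5 hpf in both. At 12 hpf it was at 14.5 TPM in *nup107* MO and 14.2 TPM in UIC.

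The order had several exceptions. *hoxb2* was left out of the onsets for its 1.00 TPM in *nup107* MO at 2.5 hpf. Its first 3 consecutive time points at 1 TPM or more began at 11 hpf in both conditions, after those of *hoxb4*, *hoxb6*, *hoxb8* and *hoxb9*. *hoxb7* (11 hpf in both conditions) came after *hoxb8* and *hoxb9* (10.5 hpf in both), and in UIC *hoxd3* (11 hpf) came after *hoxd8* (10.5 hpf). *hoxa3* to *hoxa6*, *hoxb5*, *hoxc3* and *hoxc4* had no onset, while *hoxa7*, *hoxc6* and *hoxc8* had one at 10.5 hpf. The earliest was *hoxb3*, with an onset of 4.5 hpf in both conditions. It stayed low, with a median of 1.72 TPM and a highest level of 4.56 TPM in *nup107* MO, against a median of 1.30 TPM and a highest level of 6.77 TPM in UIC. At 4.5 hpf it had 1.79 TPM in *nup107* MO and 2.18 TPM in UIC. At 6 hpf it had 3.04 TPM in *nup107* MO and 0.86 TPM in UIC. With 4 consecutive time points required, the onset of *hoxb3* was 4.5 hpf in *nup107* MO and 6.5 hpf in UIC. With 2 TPM as the level, it was 10.5 hpf in *nup107* MO and 11 hpf in UIC. The early place of *hoxb3* therefore held only at low levels. In the RefSeq annotation (assembly UCB_Xtro_10.0, not the build to which the reads were aligned) *hoxb3* overlaps *hoxb4*, *hoxb5* and *hoxb6*. At 4.5 hpf *hoxb4* had 0.11 TPM in *nup107* MO and 0.19 TPM in UIC, and *hoxb5* and *hoxb6* had 0 TPM in both. The source of the early *hoxb3* level was not tested. Likewise *hoxa3* overlaps *hoxa4* to *hoxa7*, and *hoxd3* overlaps *hoxd4*.

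*hoxc6* reached the highest level of the HoxC genes. At 10.5, 11, 11.5 and 12 hpf it had 5.22, 10.3, 12.6 and 29.9 TPM in *nup107* MO and 2.33, 6.81, 11.3 and 40.4 TPM in UIC. The first 3 values were higher in *nup107* MO and the last was lower, with 1 library each. The latest onsets in UIC, at 11 hpf, were those of *hoxd3*, *hoxb7*, *hoxc5*, both *hoxc9* entries and *pax6*. At 12 hpf *hoxb7* had 6.57 TPM in *nup107* MO and 6.50 TPM in UIC, *hoxc5* had 6.42 TPM in *nup107* MO and 5.98 TPM in UIC, and *hoxd3* had 6.04 TPM in *nup107* MO and 6.51 TPM in UIC. The *hoxc9* entries had 8.23 and 6.92 TPM in *nup107* MO and 8.91 and 8.57 TPM in UIC, and reads of this gene may be split between them.

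**Figure D4:**
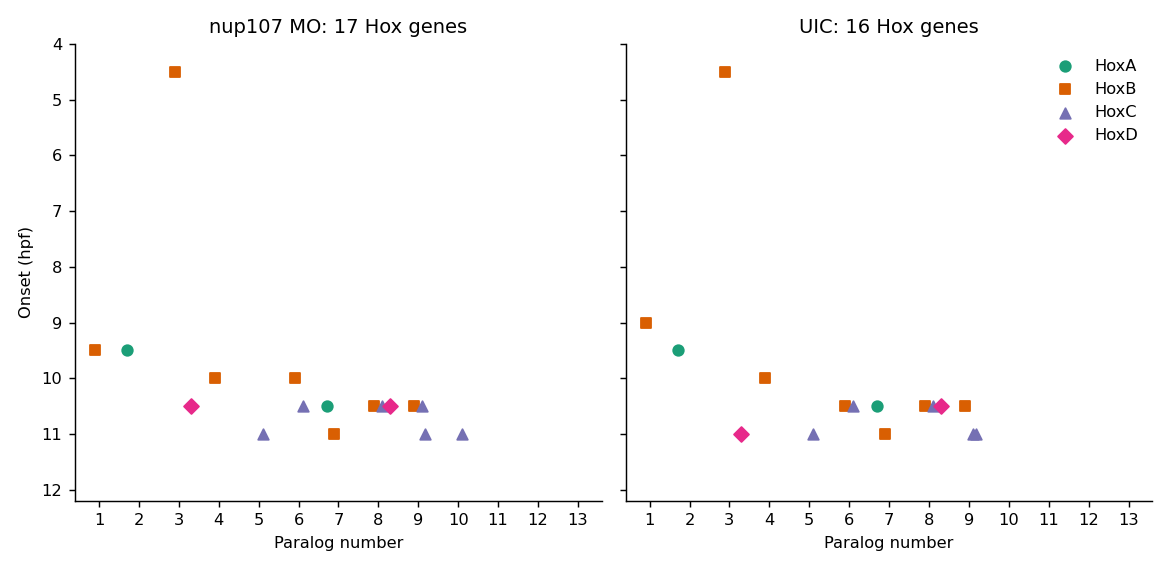
Onset (hpf, vertical axis, early at the top) of Hox genes against paralog number, in nup107 MO (left) and UIC (right), with a colour and symbol for each cluster and small sideways offsets so that points do not hide each other. In both panels paralog numbers 1 and 2 appear at 9 to 9.5 hpf and numbers of 4 and above at 10 to 11 hpf, with hoxb3 at 4.5 hpf apart from the rest and hoxd3 at 10.5 hpf in nup107 MO and 11 hpf in UIC. The panels hold 17 genes in nup107 MO and 16 in UIC, and hoxd1 and hoxb2 are not drawn, since they were at 1 TPM or more at 2 or 2.5 hpf.

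Timing was also compared at a higher level, since 1 TPM is close to the noise of low genes. For the 28 genes that reached 5 TPM in both conditions, the time was interpolated at which the level first passed 50% of the lower of both maxima. This time was earlier in *nup107* MO for 21 genes and later for 7, with a median difference of -0.05 h and a range from -0.74 h to 0.14 h. It differed by at most 0.25 h for 24 of them. Among all 1199 genes that met the same conditions, 68.6% were earlier in *nup107* MO, the median was -0.12 h, and 58.1% were within 0.25 h. The genes farthest apart were *hoxa2* (10.8 hpf in *nup107* MO, 11.5 hpf in UIC) and *hoxb9* (11.0 hpf in *nup107* MO, 11.5 hpf in UIC). For *hoxa2* the gap rested on its level of 8.28 TPM in *nup107* MO at 11 hpf, against 5.54 TPM in UIC. By this time the Hox genes kept the order of their onsets only in part. In UIC *hoxa2* (11.51 hpf) and *hoxd3* (11.57 hpf) came after *hoxb4* (11.1 hpf), *hoxb6* (11.28 hpf) and *hoxb8* (11.42 hpf). In *nup107* MO *hoxa2* (10.77 hpf) came after *hoxb4* (10.66 hpf) but before *hoxb6* (11.36 hpf) and *hoxb8* (11.44 hpf). *hoxb1* came before all of these, at 10.48 hpf in *nup107* MO and 10.6 hpf in UIC.

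Whether the time courses differed between conditions was asked with the Gaussian process (GP) test of the study's methods, which compares a curve for each condition with 1 joint curve and calls a gene when the likelihood ratio (LR) score is over 0. None of the 35 genes tested was called, while 7.22% of all 15011 genes tested were. The scores of the 35 genes had a median of -9.31, against a median of -6.76 over all genes. When each gene's mean was subtracted before the fit, 2 of the 35 genes were called, against 17.3% of all genes. These were *six4*, with a score of 1.75 and *nup107* MO above UIC in 16 of 21 pairs, and *pitx3*, with a score of 1.20 and *nup107* MO above UIC in 8 of 21.

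A comparison paired by time point, limma on log2(TPM + 1) over all 21 time points, called 15.1% of all genes at an adjusted p under 0.05. Of the 35 genes, 2 passed, and 8 had an unadjusted p under 0.05, as did 28.3% of all genes. Of those that passed, *meis3* was higher in *nup107* MO by 0.09 on the log2(TPM + 1) scale (95% interval 0.04 to 0.14, adjusted p = 0.0228). Neighbouring time points are not independent, and the GP score of *meis3* was -15.5.

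Because most of these genes were expressed late, the 7 time points from 9 to 12 hpf were also tested on their own, with limma on log2(TPM + 1) paired by time point, where a difference is *nup107* MO minus UIC. None of the 35 genes passed an adjusted p of 0.05, against 0.966% of all 15011 genes. At an unadjusted p under 0.05 there were 7, all of them higher in *nup107* MO, among them *cdx1*, *hoxa2*, *cdx2*, *pax3* and *six4*. These genes were picked out after their values were seen, and 18.8% of all genes had an unadjusted p under 0.05.

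*cdx2* differed by 0.16 on the log2(TPM + 1) scale (95% interval 0.06 to 0.26, adjusted p = 0.114) and *cdx1* by 0.20 (0.07 to 0.34, adjusted p = 0.142), both with 7 of 7 pairs in that direction. *hoxa2* differed by 0.19 (0.01 to 0.38, adjusted p = 0.252), *pax3* by 0.15 (0.03 to 0.27, adjusted p = 0.196) and *six4* by 0.12 (0.03 to 0.22, adjusted p = 0.172).

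A p that misses the threshold does not show equal levels. The intervals measure the spread between paired libraries, with replication over time points only. Neighbouring time points are not independent, so that the intervals do not bound the effect of the condition. Of the 35 genes, 33 had a 95% interval that lay within 0.50 of 0 on the log2(TPM + 1) scale, and 15 had one within 0.25. One of those with wider intervals was *nkx2-4*, at 0.23 (-0.05 to 0.51). *cdx4*, the most abundant gene, differed by 0.10 (-0.01 to 0.22), *hoxd1* by 0.10 (-0.01 to 0.21) and *lhx5* by -0.11 (-0.25 to 0.03). On this scale the change of genes with low levels is understated.

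Over the 35 genes, 23 had a positive mean difference, with a median of 0.04 on the log2(TPM + 1) scale, beside 54.9% positive and a median of 0.02 over all genes. The direction varied from one time point to the next. At 9.5 and 10.5 hpf 27 of the 35 genes were higher in *nup107* MO, and at 10 hpf 11 were. At 10.5 hpf their median difference was 0.18 on the log2(TPM + 1) scale, and that of all genes was 0.08. Without the pair of libraries of 10.5 hpf, 19 of the 35 genes had a positive mean difference. In that setting 5 of the 35 had an unadjusted p under 0.05, as did 2167 of all 15011 genes. Without any other 1 pair, 22 to 26 of the 35 genes had a positive mean difference. Between 5 and 8 of the 35 had an unadjusted p under 0.05, beside 2128 to 2713 of all 15011 genes. The direction of these few genes also varied. Those higher in *nup107* MO were 5 of 8 without 12 hpf, 6 of 8 without 9.5 hpf, 6 of 7 without 9 hpf and 4 of 5 without 10.5 hpf. Without 10, 11 or 11.5 hpf all were higher.

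**Figure D5:**
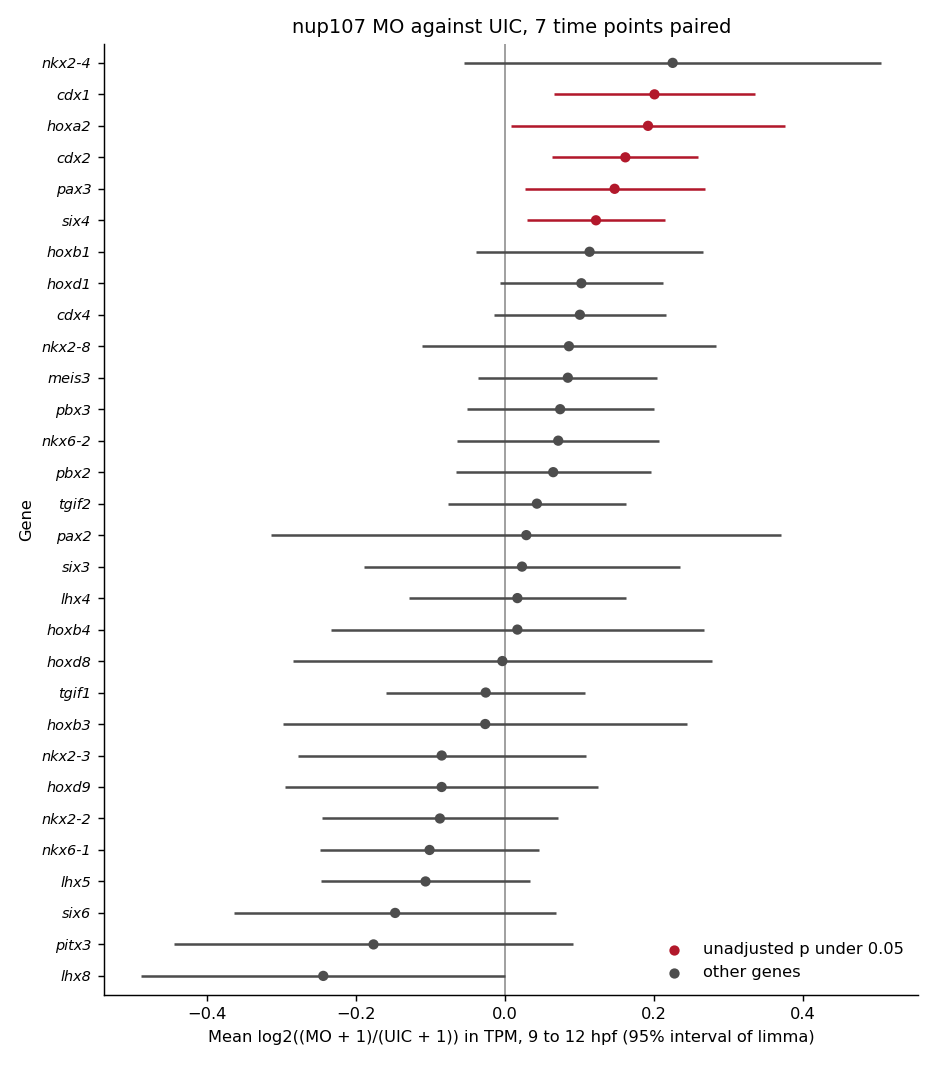
Mean difference between nup107 MO and UIC at 9 to 12 hpf for 30 of the 35 genes tested (points, log2(TPM + 1) scale) with the 95% interval of the paired limma comparison over 7 time points (lines). Red marks the 5 of them with an unadjusted p under 0.05, all to the right of 0 (higher in nup107 MO). No gene had an adjusted p under 0.05.

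The 51 genes that were not tested are described by their levels. Of these, 20 stayed under 1 TPM, and 13 had an onset in both conditions, with highest levels from 6.42 to 40.4 TPM. Of the 13, 3 were higher in *nup107* MO at 12 hpf (*hoxb7*, *hoxb8* and *hoxc5*) and 10 were not. Over the 7 time points from 9 to 12 hpf, 12 of the 13 had a positive mean difference on the log2(TPM + 1) scale. The median was 0.11 and the range from -0.12 to 0.24. No share over all genes is given for a set chosen in this way, so this count was not weighed against one. The remaining 18 had highest levels between 1.02 and 7.54 TPM, among them *pitx1*, *lhx2*, a gene of the forebrain and eye, and *hoxc4*. At 12 hpf *lhx2* had 5.03 TPM in *nup107* MO and 4.75 TPM in UIC, and *hoxc4* had 4.56 TPM in *nup107* MO and 4.41 TPM in UIC. When the filter was a mean of at least 0.4 TPM at 9 to 12 hpf, a choice made after the data were seen, 58 of the 86 genes could be tested and limma called none, against 0.851% of all 15390 genes tested in this way. Of the 58, 9 had an unadjusted p under 0.05, as did 18.2% of all genes, and 44 had a positive mean difference, with a median of 0.08 on the log2(TPM + 1) scale, beside 55.2% positive and a median of 0.02 over all genes.

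Genes that act on Hox and Cdx genes were looked at with lists taken from general knowledge. Of 22 tested signals and factors of the head to tail axis, the GP test called 1, and limma at 9 to 12 hpf called none. In limma at 9 to 12 hpf 3 had an unadjusted p under 0.05 (*rarg*, *wnt5b* and *t*), all higher in *nup107* MO, beside 18.8% of all genes. Over 21 time points limma called 2 of the 22, beside 15.1% of all genes. These limma calls were *wnt5b* (0.12 on the log2(TPM + 1) scale, adjusted p = 0.0273) and an entry of *wnt11* (-0.08, adjusted p = 0.0181). The gene called by the GP test was *fgf4* (LR 1.31), a low gene with a highest level of 2.11 TPM in *nup107* MO and 2.13 TPM in UIC. Its means were 0 TPM in *nup107* MO and 0.43 TPM in UIC at 5.5 to 8.5 hpf, then 1.43 TPM in *nup107* MO and 0.98 TPM in UIC at 9 to 12 hpf, with *nup107* MO above UIC in 5 of 21 pairs. The lowest adjusted p of the list at 9 to 12 hpf was that of *rarg*, a retinoic acid receptor, with a difference of 0.34 on the log2(TPM + 1) scale (adjusted p = 0.0948) and a highest level of 123 TPM in *nup107* MO and 95.8 TPM in UIC. *aldh1a2*, the enzyme that makes retinoic acid, reached 291 TPM in *nup107* MO and 305 TPM in UIC, and *cyp26a1*, which breaks it down, reached 243.5 TPM in *nup107* MO and 211 TPM in UIC.

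Of 10 tested homeobox genes of the head that were not among the 86, *lhx1* included, the GP test called none. Limma at 9 to 12 hpf called none, with 1 at an unadjusted p under 0.05 (*gsc*, lower in *nup107* MO), beside 18.8% of all genes. Over 21 time points limma called 0 of them. Among them *otx2*, a gene of the forebrain and midbrain, reached 146 TPM in *nup107* MO and 137 TPM in UIC, and *rax*, a gene of the eye field, reached 68.0 TPM in *nup107* MO and 54.4 TPM in UIC. Of 19 tested Polycomb and Trithorax genes, whose products keep Hox genes silent or active, the GP test and limma at 9 to 12 hpf called none. In limma at 9 to 12 hpf 2 of the 19 had an unadjusted p under 0.05 (*men1* and *bmi1*), beside 18.8% of all genes. Limma over 21 time points called 3 of the 19, a share close to the 15.1% of all genes. These were *ezh2*, which encodes the H3K27 methyltransferase of Polycomb (0.08 on the log2(TPM + 1) scale, adjusted p = 0.003026, higher in *nup107* MO in 20 of 21 pairs), *jarid2* (0.13, adjusted p = 0.0391) and *men1* (-0.08, adjusted p = 0.0473). Of the 15 germ layer markers the GP test and limma at 9 to 12 hpf called none, and limma over 21 time points called 0. In limma at 9 to 12 hpf 3 had an unadjusted p under 0.05 (*krt*, *t* and *grhl1*), all higher in *nup107* MO, beside 18.8% of all genes. Of the 15 markers, 8 had a positive mean difference, with a median of 0.005 on the log2(TPM + 1) scale, beside 54.9% positive over all genes.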

How the data were processed

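PolyA+ libraries of 21 time points in each of 2 conditions were used, grouped by the sample labels. Of 84 labelled samples, 42 were used. The table of the ribozero samples is the same, value for value, as the polyA+ table, and those 42 samples were not analysed here. The type of library is therefore known from the labels only, and 1 ribozero sample names the polyA+ table. The TPM per gene were deposited by the authors, who used STAR on the Xt9.1 build with ERCC sequences added and then RSEM, so that spike-ins are part of the total. The deposited TPM do not include the dinucleotide correction of the study's methods.

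The genes, families and lists were chosen with earlier results of these data known. The GP test followed the study's methods (square root of 1 + 1000 times TPM over the gene's maximum, Matern kernel, log-normal priors). Its mean of 0 is a choice the methods do not state. Limma paired the conditions by time point, since both were collected together. It used log2(TPM + 1) and Benjamini-Hochberg adjustment over all 15011 genes tested. Limma and the GP were also run on simulated data, with changes larger than those described here and noise independent between time points. That run cannot show whether smaller differences would be found or whether the p-values hold for dependent time points. Replication is over time points only, so that p-values measure the spread between paired libraries. The time at 50% of the maximum was added after the levels were seen. Values are given for each gene called by a test, the gene with the highest TPM in each family, the 5 earliest and 5 latest onsets in UIC with ties, and genes whose onsets differed by 1 h or more. Other genes are named as examples, chosen after their values were seen. The results of some genes are not reported here and were left out of the figures, though these genes stay in all counts and adjustments. RefSeq symbols matched 85 of 86 entries. Software was Python 3.11.15 (numpy 2.4.6, scipy 1.17.1, pandas 2.3.3, numba 0.67.0, matplotlib 3.10.9), and limma 3.58.1 in R 4.3.3. Alternatives covered filters, scaling, transform, pseudocount, pairing, time points and the definition of the onset.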

Additional observations from a re-analysis of the deposited data

How the results depend on the processing

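The GP test called 0 of the 35 genes, and it did so with a score over 3, with the filter required in both conditions, with ERCC or median ratio scaling and without any 1 of the 21 time points (0 to 0 calls). It called 2 genes with each gene's mean subtracted on the square root scale and 2 on the centred log2(TPM + 1) scale (*six4* and *pitx3* in both), where 17.3% and 17.8% of all genes were called. It called 2 of 86 without the filter, a setting for which no share of all genes is given. These were *nkx1-1* (score 1.43, no library over 0.31 TPM) and *pax4* (score 429.9). *pax4* was listed at 0 in all *nup107* MO libraries and at 0.19 TPM in 1 UIC library. A score fitted to a series of 0 TPM cannot be compared with the others. Limma paired over 21 time points called 2, among them *meis3*. At 9 to 12 hpf 0 genes were called by the planned comparison and in most alternatives, 0 to 0 without any 1 time point, and 1 with the trend option of limma (*cdx2*, adjusted p = 0.0485). Without the replicate block, that is with no pairing by time point, 0 of the 35 and 0 of all 15011 genes passed, and 0 of the 35 had an unadjusted p under 0.05.

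The count over all genes at 9 to 12 hpf was less stable. It was 145 (90 higher in *nup107* MO, 62.1%), 93 with a pseudocount of 0.1, 416 with a pseudocount of 5 (49.8% higher), 60 with ERCC scaling (57 higher), 395 with the trend option (48.9% higher), and 11 to 109 without 1 time point (11 without 11 hpf, 109 without 9 hpf). The number of genes with a later onset in *nup107* MO was 4, and became 1 at a level of 2 TPM and 2 with ERCC scaling, and stayed at 3 or 4 under the other definitions. The number with an earlier onset was 9 of 33, and became 27 of 50 with 10% of the highest value as the level. It was 6 of 23 at 2 TPM, 13 of 35 at 0.5 TPM and 13 of 33 with ERCC scaling. Among all genes, 604 of 1844 had an earlier onset, and 1357 of 3584 with 10% of the highest value as the level. At 2 TPM 566 of 1652 of all genes did, and with ERCC scaling 704 of 1870. No number for all genes is given at 0.5 TPM. The cause of these shifts was not tested. Of 524 single-gene differences at 9 to 12 hpf under the alternatives, 25, in 7 genes, had the other sign, and none of these was called. No depth is known, so that no detection limit is given.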
